A study of Rattus norvegicus with 8 samples.

Results

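The genes of the mitochondrial ribosome were taken as all array probes whose gene name starts with Mrpl (large subunit) or Mrps (small subunit) followed by a digit. This gave 81 of the 30328 probes used and 70 gene names, 42 of the large and 28 of the small subunit. A gene was tested where 1 of its probes was well above background, by the scanner software's flag on most of its spots, on both arrays of at least 1 group. By this rule 69 of the 70 genes were among the 16908 genes tested, 42 large and 27 small, and 66 of them were above background on all 8 arrays. Mrps28 had a single probe, which was not well above background on any array, so it has no values below. The array also carries mrpl9, mrpl11 and mrpl24 in lower case, which the name rule leaves out and which are given apart. Mrps36 carries the symbol of a ribosomal protein on this array but is listed by RefSeq as Kgd4, a component of the 2-oxoglutarate dehydrogenase complex, and Mrps18a and Mrps30 are known to sit in the large subunit despite their names.

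RNA came from N27 cells, an immortalised line derived from embryonic rat mesencephalon that makes dopamine, grown in RPMI medium, so every value below is from 1 cell line. There were 2 arrays in each of 4 groups: untreated control, manganese (Mn) at 150 µM for 48 h, 1-methyl-4-phenylpyridinium (MPP+) at 250 µM for 48 h, and 3-nitropropionic acid (3-NPA), for which the labels give neither dose nor time. MPP+ is known to block complex I of the respiratory chain, 3-NPA to inactivate succinate dehydrogenase, and excess manganese to injure the basal ganglia. No vehicle is named for any group, and nothing states that the 2 arrays of a group came from separate cultures, and all p-values rest on the spread between array pairs, which may be technical only. In RNA of a whole culture, fewer cells that express a gene and less RNA of it per cell cannot be told apart.

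All 8 arrays lay on 1 slide, had between 32711 and 41354 spots well above background out of 58717 non-control spots, the lowest on the control arrays, and held 0 saturated spots among these. The 3-NPA arrays alone came from the second of 2 feature extraction runs, control and Mn arrays lay in another row of the slide than MPP+ and 3-NPA arrays, and control and MPP+ arrays lay in other columns than Mn and 3-NPA arrays. The effect of a treatment cannot be told apart from that of these positions and runs. Of the 11 dopaminergic markers, Th, Slc18a2 and Nr4a2 were above background on all 8 arrays, while Slc6a3, Lmx1a and Foxa2 were above it on none. Of the others, Ddc, Lmx1b and Foxa1 were above it on both arrays of each toxin and on neither control array. Pitx3 was above it on the MPP+ and 3-NPA arrays only. Aldh1a1 was above it on both control and both 3-NPA arrays, on 1 MPP+ array and on neither Mn array. Of the 6 microglial markers Aif1, Itgam, Cx3cr1 and Cd68 were above background on all 8 arrays, Csf1r on all but the control arrays and Ptprc on none. Neuronal Tubb3, Map2 and Eno2, progenitor Nes and Vim, and astrocyte Aldh1l1 were above it on all 8. Neuronal Snap25 and Syt1, progenitor Sox2, and astrocyte Slc1a2 and S100b were above it on none. No oligodendrocyte or endothelial marker was above it on all 8. Oligodendrocyte Mag and endothelial Cdh5 were above it on 1 control array and both arrays of each toxin.

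Mitochondria keep ribosomes of their own, which make the few respiratory chain subunits encoded by mitochondrial DNA. The ribosomal RNAs come from that DNA, whereas all the proteins are encoded in the nucleus, made in the cytosol and imported. About these proteins it is known that many are homologues of bacterial ribosomal proteins, and the others were acquired in mitochondria. Neurons depend on this machinery because the respiratory chain cannot be assembled without it. In the description here, 40 of the 69 genes tested were counted as bacterial-type by a list of names. The 29 not on that list were counted as mitochondrion-specific. That class can therefore hold genes that do not belong in it, as it does Mrps36. It also holds Mrps18a and Mrps18b, which are relatives of bacterial S18. None of the 13 protein genes of mitochondrial DNA was found on the array by name, so the products of this ribosome were not measured.

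With 3-NPA most of the called genes of the mitochondrial ribosome were lower, and the toxins ranked by the number of calls as they did over all genes. Against control, 3-NPA changed 30 of the 69 genes, 27 downward and 3 upward, MPP+ changed 12, 6 in each direction, and Mn changed 0. The test was limma fitted over all 8 arrays, with p-values adjusted by Benjamini-Hochberg over all 16908 genes and a call at an adjusted p below 0.05. The share of all genes called by the same test was 38.3% with 3-NPA, 13.9% with MPP+ and 7.66% with Mn, so that the shares of ribosomal genes called with 3-NPA (43.5%) and MPP+ (17.4%) were near those of all genes. The downward calls with 3-NPA made up 39.1% of the ribosomal genes against 16.0% of all genes, and the upward calls 4.35% against 22.3%. With MPP+ 8.70% of the ribosomal genes were called higher and 8.70% lower, against 7.47% and 6.47% of all genes, and with Mn all genes gave 4.50% higher and 3.16% lower. On both 3-NPA arrays 45 of the 69 genes lay below both control arrays and 9 above them. Of all 16908 genes 5399 lay below and 6752 above, or 71.9% without overlap in either direction. These comparisons share the 2 control arrays.

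**Figure D1:**
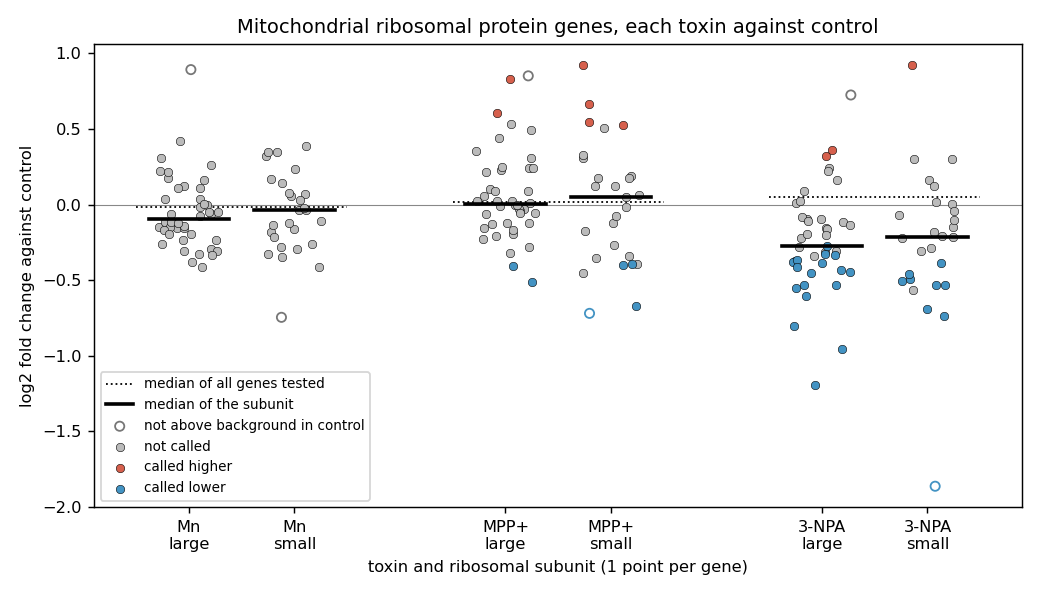
Log2 fold change of each mitochondrial ribosomal protein gene against control (vertical axis), for Mn, MPP+ and 3-NPA and for the large and small subunit (horizontal axis), with 1 point per gene, filled by call, a bar at the subunit's median and a dotted line at the median of all genes tested. With 3-NPA the subunit medians are -0.28 and -0.21 while that of all genes is 0.051; open points are genes not above background on either control array.

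Both subunits had medians below that of all genes with 3-NPA. There the median log2 fold change was -0.28 over the 42 large-subunit genes and -0.21 over the 27 small-subunit genes, against 0.051 over all genes tested. The interquartile range ran from -0.41 to -0.094 in the large subunit and from -0.50 to -0.018 in the small subunit. Called genes were 18 down and 2 up in the large subunit, and 9 down and 1 up in the small subunit. With MPP+ the medians were 0.0022 and 0.049, with 2 up and 2 down among large-subunit genes and 4 up and 4 down among small-subunit genes. That is 9.52% and 29.6% called, against 13.9% of all genes. The small-subunit calls include Mrps10 and Mrps2, near background in control, and Mrps18a, which sits in the large subunit. With Mn the medians were -0.096 and -0.037, the latter being 0.037 when arrays were scaled on their medians. Counting Mrps18a and Mrps30 with the large subunit left the medians with 3-NPA at -0.25 and -0.22. No test was made of the difference between the subunits.

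The spread between replicate arrays was as follows for these genes. The median absolute difference between the 2 arrays of a group was 0.13 on the log2 scale for control, 0.15 for Mn, 0.054 for MPP+ and 0.070 for 3-NPA. The largest was 0.90, for Mrps15 on the Mn arrays, and Mrps15 also differed by 0.67 between the 3-NPA arrays. Relative to the control mean, the large-subunit median stood at -0.28 and -0.26 on the 3-NPA arrays and between -0.14 and 0.030 on the other 6 arrays.

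**Figure D2:**
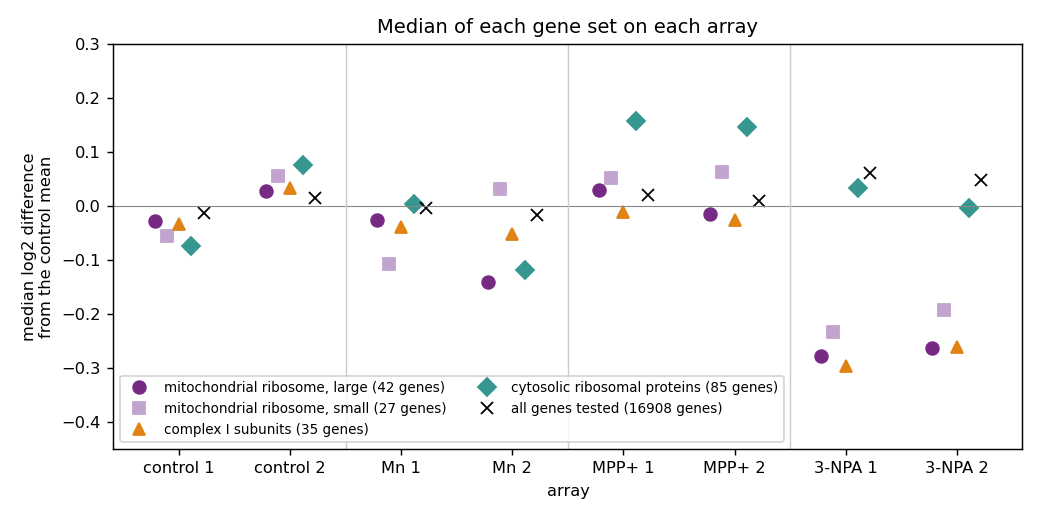
Median log2 difference from the control mean (vertical axis) on each of the 8 arrays (horizontal axis) for the large and small subunit of the mitochondrial ribosome, complex I subunits, cytosolic ribosomal proteins and all genes tested. On both 3-NPA arrays the 2 mitochondrial ribosome sets and complex I lie between -0.30 and -0.19, and cytosolic ribosomal proteins and all genes between -0.0039 and 0.060.

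In the large subunit, Mrpl49 had the largest fall with 3-NPA. Mrpl49, a mitochondrion-specific protein, had log2 levels of -0.83 and -0.57 on the control arrays, -0.64 and -0.54 with Mn, -0.64 and -0.75 with MPP+, and -1.89 and -1.90 with 3-NPA. A log2 level is the log2 signal minus the 75th percentile of its array, so that 0 marks that percentile. Only the 3-NPA arrays were low, and they did not overlap any other array. Mrpl49 fell by 1.19 ± 0.12 (standard error of the fit) with 3-NPA, a 2.28-fold change (limma adjusted p = 0.000997), and differed by 0.11 ± 0.12 with Mn and 0.0094 ± 0.12 with MPP+, neither called. It is measured by 1 probe, whose opening bases are shown because this gene carries the largest called change between measured levels.

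The next falls were in Mrpl35 and Mrpl41. Mrpl35, the homologue of bacterial L35, stood at 0.39 and 0.25 in control and at -0.67 and -0.60 with 3-NPA, and fell by 0.96 ± 0.11 (limma adjusted p = 0.00188). With normexp background correction Mrpl35 differed by only -0.43 and was not called (limma adjusted p = 0.0508), and its second, dimmer probe differed by -0.31 without a call. At the brighter probe the Mn and MPP+ arrays lay between, from -0.10 to 0.14, below both control arrays, without a call. Mrpl41, a mitochondrion-specific protein, stood at 3.75 and 3.81 in control, at 3.49 to 3.56 on the 4 Mn and MPP+ arrays, and at 2.88 and 3.07 with 3-NPA. It fell by 0.80 ± 0.10 with 3-NPA (limma adjusted p = 0.00215). Mrpl18, whose bacterial homologue binds 5S ribosomal RNA, was at 4.20 and 4.41 in control and at 3.81 and 3.59 with 3-NPA, and fell by 0.61 ± 0.19, just inside the threshold (limma adjusted p = 0.0490). Mrpl54 was tightly placed, at 4.45 and 4.47 in control and 3.92 and 3.89 with 3-NPA, and fell by 0.55 ± 0.09.

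The other falls in the large subunit were smaller. Over 26 genes called lower in both subunits, leaving out Mrps10, the median change was 1.39-fold, and 6 were lower by at least 1.5-fold. Mrpl12, the stalk protein that recruits translation factors, was 4.99 and 5.03 in control and 4.69 and 4.66 with 3-NPA, and fell by 0.33 ± 0.08. The smallest called fall was that of Mrpl48, by 0.27 on the log2 scale. In the large subunit 2 genes rose with 3-NPA: Mrpl52 by 0.36 ± 0.09 and Mrpl23 by 0.32 ± 0.09, and neither was called when arrays were scaled on their medians.

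In the small subunit, Mrps23 and Mrps7 fell most among genes measured in control. Mrps23, a mitochondrion-specific protein, was at 1.14 and 1.09 in control, 0.70 and 0.87 with Mn, 0.69 and 0.75 with MPP+, and 0.36 and 0.39 with 3-NPA. All 6 treated arrays lay below both control arrays. Mrps23 fell by 0.74 ± 0.09 with 3-NPA (limma adjusted p = 0.00236) and by 0.39 ± 0.09 with MPP+ (0.0436). Mrps7, the homologue of a bacterial protein of the head of the subunit, was at 2.51 and 2.53 in control and at 1.85 and 1.80 with 3-NPA, while the Mn and MPP+ arrays lay above control, from 2.68 to 2.84. It fell by 0.69 ± 0.09 with 3-NPA (limma adjusted p = 0.00279). Mrps16 fell by 0.53 ± 0.10, and Mrps36, the dehydrogenase component, by 0.54 ± 0.12.

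Mrps27 went the other way. Mrps27, a protein with pentatricopeptide repeats, which bind RNA in other proteins, stood at -1.55 and -1.40 in control, -1.04 and -1.13 with Mn, -0.92 and -0.95 with MPP+, and -0.59 and -0.52 with 3-NPA. Every treated array lay above both control arrays, and the 3-NPA arrays above all others. It rose by 0.92 ± 0.10 with 3-NPA (limma adjusted p = 0.00120) and by 0.54 ± 0.10 with MPP+ (0.0189), and was higher by 0.39 ± 0.10 with Mn, which was not called (0.0663).

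The array probes of these genes, from the scanner files, show what was hybridised. Each probe has 60 bases, of which the first 30 are printed from the 5′ end. Positions are those of the whole probe on the rn4 assembly. They were not set against an annotation of that build, so exon and UTR are not given. Mrpl49 was read at chr1:208692119-208692178, minus strand, Mrpl41 at chr3:5120436-5120495, minus strand, Mrps7 at chr10:105686811-105686870, plus strand and Mrps27 at chr2:30386318-30386377, plus strand. The probe of Mrps23 spans chr10:76501513-76506765, plus strand, far more than its own length.
Mrpl49: acccaggttaatgaggtgacaggtactctt
Mrpl41: tatggctttgagcccacacaggaaggcaaa
Mrps23: ttttaccgagaggatcagattcgagcgaaa
Mrps7: ggtatacacatggtatacagacacatgtgc
Mrps27: aggaaggctaacgattgcagaacacacaga

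**Figure D3:**
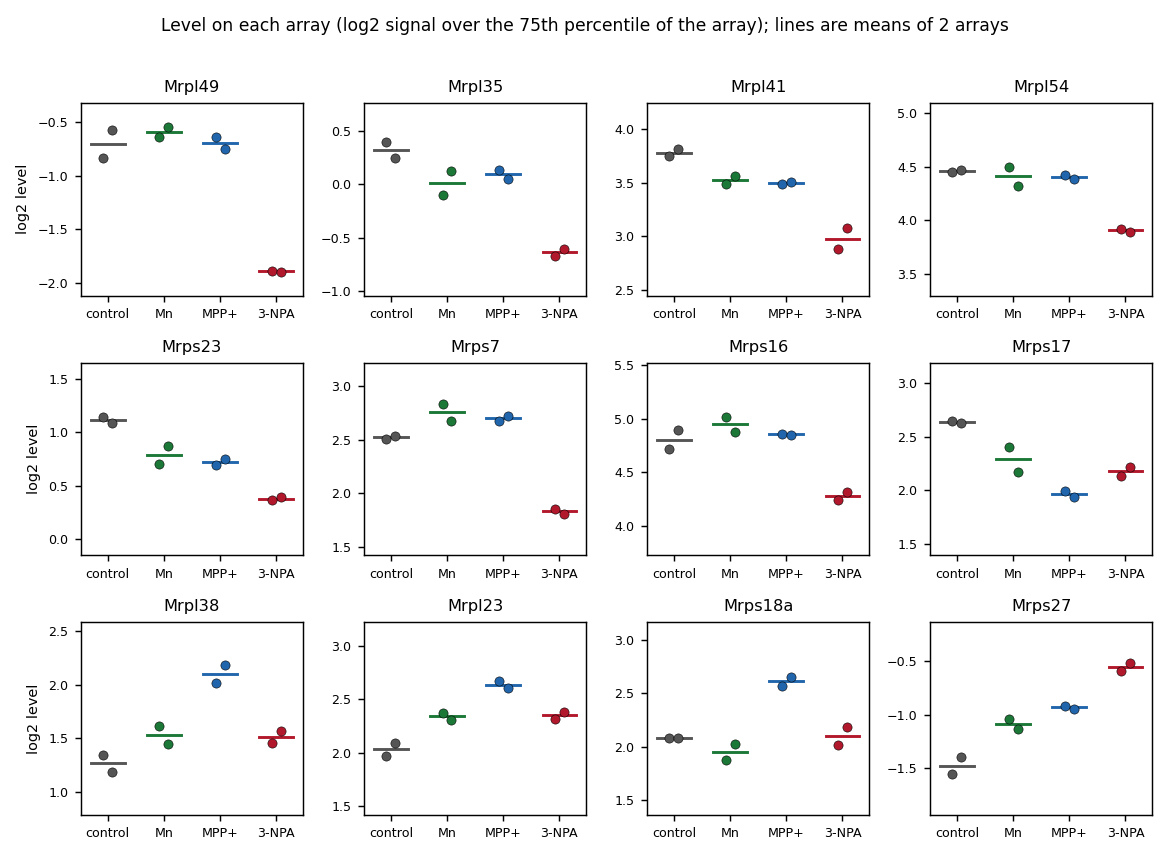
Log2 level on each array (vertical axis, log2 signal over the 75th percentile of the array) in the 4 groups (horizontal axis) for 12 genes with called changes; points are arrays, lines are means of 2 arrays, and every panel spans the same number of log2 units. The 3-NPA arrays are the lowest for Mrpl49, Mrpl35, Mrpl41, Mrpl54, Mrps23, Mrps7 and Mrps16, the MPP+ arrays are the lowest for Mrps17 and the highest for Mrpl38, Mrpl23 and Mrps18a, and the 3-NPA arrays are the highest for Mrps27.

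Mrps10 needs separate mention. Mrps10, the homologue of bacterial S10, had log2 levels of -4.23 and -3.77 in control, -4.66 and -4.83 with Mn, -4.65 and -4.79 with MPP+, and -5.89 and -5.84 with 3-NPA. It was not well above background on either control array or on 1 of the 2 3-NPA arrays, so no fold change is given although it was called lower with MPP+ and 3-NPA. Across the alternatives its difference with 3-NPA ran from -3.23 to -0.93. Without it the counts are 26 down and 3 up with 3-NPA, and 5 down and 6 up with MPP+. Mrpl47, also not above background in control, was not called with any toxin.

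The count of genes changed by 3-NPA depended on which arrays were in the fit. It was 8 of 69 without 3-NPA replicate 1, 13 without 3-NPA replicate 2, 19 without either control array, 19 without either MPP+ array and 16 with the 4 control and 3-NPA arrays alone, and in each case more genes were called lower than higher. The share of all genes called fell in these settings too, and the share of ribosomal genes lay below it in each. With the 4 control and 3-NPA arrays alone, 29.8% of all genes and 23.2% of the ribosomal genes were called. Mrpl41, Mrpl49, Mrpl54, Mrps7, Mrps23 and Mrps27 kept their 3-NPA call in all 20 alternative settings. These 20 leave out the fit of every probe and a limit of at least 2-fold, which only Mrpl49 of these genes met. Among the other genes named for a change with 3-NPA, the call was lost in 1 setting for Mrpl35 and for Mrps16 (without 3-NPA replicate 1), in 2 for Mrps36, 4 for Mrps17, 8 for Mrpl12, 9 for Mrpl23, 10 for Mrpl52, and 12 each for Mrpl18 and Mrpl48.

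With MPP+ as many ribosomal genes were called higher as lower, 6 and 6, but that split moved with the fit. It was 7 higher and 1 lower with arrays scaled on their medians, 9 and 5 with quantile normalization, and 6 and 2 with the replicate block. Of the 69 genes 17.4% were called, near the 13.9% of all genes, and the median log2 fold change over the 69 was 0.0094. Mrpl38, a mitochondrion-specific protein of the central protuberance of the large subunit, stood at 1.35 and 1.19 in control, 1.62 and 1.45 with Mn, 2.01 and 2.18 with MPP+, and 1.46 and 1.57 with 3-NPA. Both MPP+ arrays lay above every other array. Mrpl38 rose by 0.83 ± 0.12 with MPP+, a 1.78-fold change (limma adjusted p = 0.0102). Mrpl23, known to lie at the exit of the peptide tunnel, was at 1.97 and 2.09 in control and 2.67 and 2.61 with MPP+, and rose by 0.61 ± 0.09 (limma adjusted p = 0.0118). In the small subunit, Mrps18b rose by 0.67 ± 0.15, Mrps27 by 0.54 ± 0.10 and Mrps18a by 0.53 ± 0.10. Mrps2 rose by 0.92 ± 0.23, but was above background on only 1 of the 2 control arrays.

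The falls with MPP+ were in other genes. Mrps17, the homologue of bacterial S17, was at 2.65 and 2.63 in control, 2.41 and 2.17 with Mn, 1.99 and 1.94 with MPP+, and 2.14 and 2.22 with 3-NPA. The MPP+ arrays were the lowest, and no treated array reached the control level. Mrps17 fell by 0.67 ± 0.11 with MPP+ (limma adjusted p = 0.0145) and by 0.46 ± 0.11 with 3-NPA (0.0190). Mrpl36 fell by 0.51 ± 0.10 with MPP+, Mrpl34 by 0.41 ± 0.10, Mrps12, a homologue of a protein of the bacterial decoding centre, by 0.40 ± 0.09, and Mrps23 by 0.39 ± 0.09. None of the 12 calls with MPP+ held in all alternatives. Without any 1 of the control, MPP+ or 3-NPA arrays fewer ribosomal genes were called, and their share was below that of all genes. With the 4 control and MPP+ arrays alone, 2.90% of the ribosomal genes and 5.78% of all genes were called.

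Mn left no ribosomal gene past the threshold. By limma 0 of 69 were called, and at an unadjusted p below 0.05 there were 13 lower and 6 higher. Of all 16908 genes 2029 were lower and 2341 higher at that looser limit, or 25.8%. On both Mn arrays 28 genes lay below both control arrays and 11 above them. Over all genes 4238 lay below and 4293 above, or 50.5% without overlap. The alternative settings called between 0 and 3 genes. Nearest to a call were Mrps10, Mrps27 and Mrpl4: Mrpl4, the homologue of bacterial L4, stood at 0.92 and 1.04 in control and 0.63 and 0.66 with Mn, a difference of -0.33 ± 0.09 (limma adjusted p = 0.0827). Without control replicate 1 or without control replicate 2 there was 1 call.

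**Figure D4:**
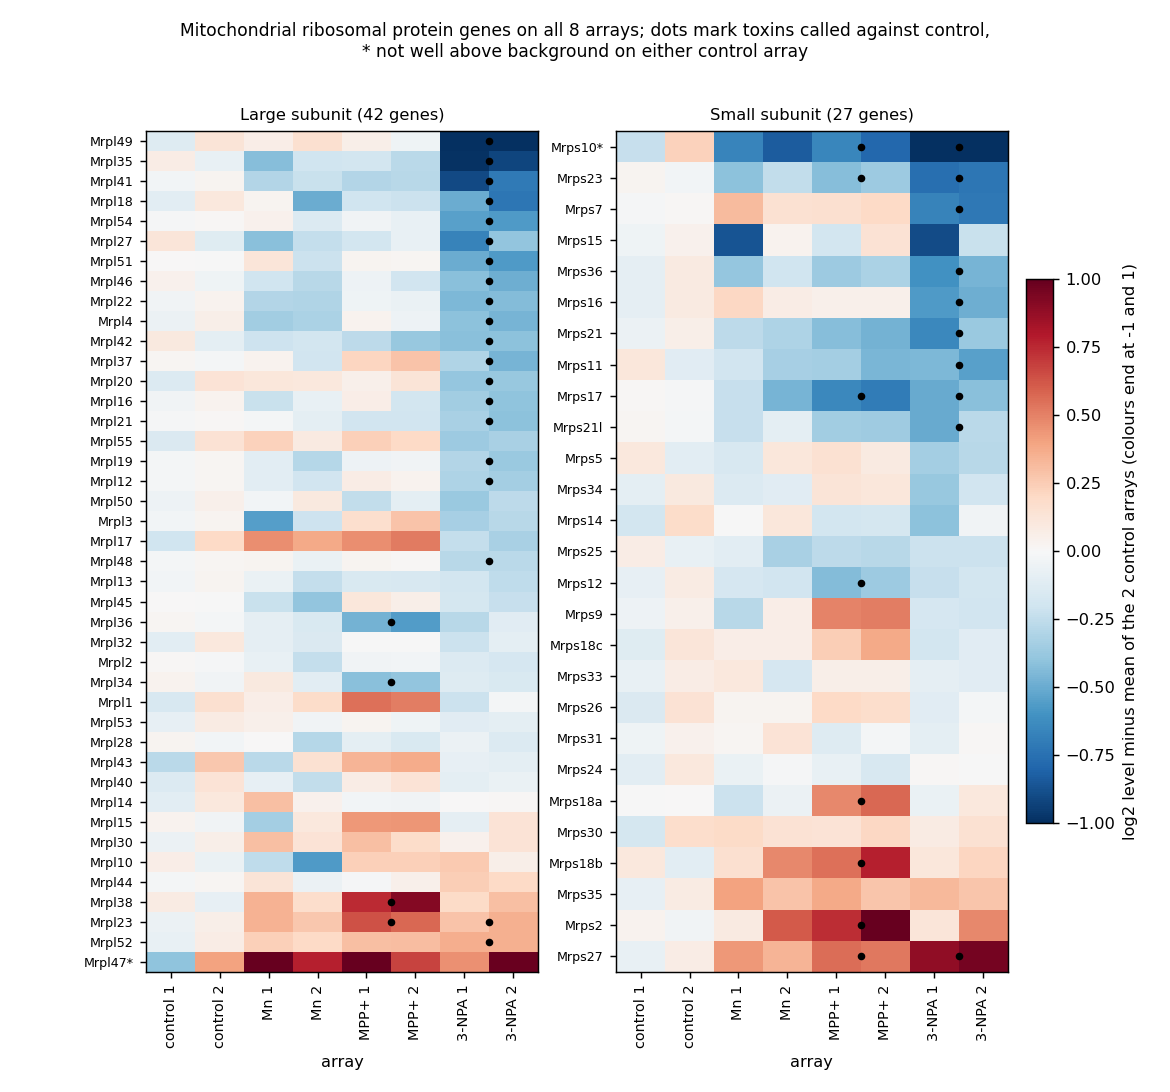
Log2 level minus the mean of the 2 control arrays (colour) for the 42 large-subunit and 27 small-subunit genes (rows, ordered by their 3-NPA change) on the 8 arrays (columns); a dot marks a toxin called against control and an asterisk a gene not above background on either control array. Most rows are blue in the 3-NPA columns, where 27 genes were called lower, while the MPP+ columns hold 6 genes called higher and 6 called lower.

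The toxins were also set against each other, although the dose and time of 3-NPA are not stated. Mn and MPP+ were higher than 3-NPA in most called genes: 13 higher and 2 lower for Mn, and 25 higher and 1 lower for MPP+, where 28.6% and 31.0% of all genes were called (11.7% higher and 16.9% lower for Mn, 12.9% and 18.1% for MPP+). Mrpl49 was higher than with 3-NPA by 1.30 ± 0.12 with Mn (limma adjusted p = 0.00104) and by 1.20 ± 0.12 with MPP+ (0.00128). Mrps7 was higher by 0.93 ± 0.09 and by 0.87 ± 0.09. Mrps27 differed from 3-NPA by -0.53 ± 0.10 with Mn and by -0.38 ± 0.10 with MPP+. Between Mn and MPP+ 5 genes were called, all lower with Mn, against 9.1% of all genes (4.88% higher and 4.22% lower): Mrps18a by 0.66, Mrpl10 by 0.65, Mrps9 by 0.61, Mrpl3 by 0.60 and Mrpl38 by 0.57 on the log2 scale. The value of Mrpl10 is that of its brighter probe. Against control, its dimmer probe differed by only -0.043 with Mn and 0.095 with MPP+, neither called.

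Among members with well-known roles, several had no call against control. Mrpl10, which anchors the stalk, stood at 5.68 and 5.55 in control, 5.36 and 5.05 with Mn, 5.86 on both MPP+ arrays, and 5.88 and 5.68 with 3-NPA. Both Mn arrays were the lowest, a difference from control of -0.41 ± 0.14 (limma adjusted p = 0.130). These are values of the brighter of 2 probes of Mrpl10. The dimmer probe differed by -0.043 with Mn, without a call, and was called lower with 3-NPA, by 0.54. Mrpl44, which has a fold like that of RNase III, was at 1.44 and 1.48 in control and at 1.71 and 1.66 with 3-NPA, a difference of 0.22 ± 0.10 that was not called. Mrps34 differed by -0.29 ± 0.11 with 3-NPA and Mrpl3 by -0.31 ± 0.13, also without a call. The 3 relatives of bacterial S18 all lay above control with MPP+: Mrps18a by 0.53 ± 0.10 and Mrps18b by 0.67 ± 0.15, both called, and Mrps18c by 0.31 ± 0.11 without a call. With 3-NPA none of the 3 was called. Mrps30 differed by 0.12 to 0.17 with each toxin, without a call.

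The genes for bacterial-type proteins and the large-subunit genes for mitochondrion-specific proteins had more falls with 3-NPA than the 16.0% over all genes. Of the 40 bacterial-type genes 17 fell, or 42.5%, and 1 rose, with a median log2 fold change of -0.31. Of the 29 mitochondrion-specific genes 10 fell, or 34.5%, and 2 rose, with a median of -0.11. The latter falls were mostly in the large subunit, with 8 of 17 genes or 47.1%, against 2 of 12 or 16.7% in the small subunit, about the share of all genes. Those 2 are Mrps23 and Mrps36, and Mrps36 is listed as a dehydrogenase component. The 12 also include Mrps18a and Mrps30, which sit in the large subunit, so this contrast rests in part on how these genes are named. Split further, the median with 3-NPA was -0.28 in bacterial-type and -0.27 in mitochondrion-specific genes of the large subunit, and -0.39 and -0.053 in those of the small subunit. With MPP+ the small subunit gave 1 up and 3 down among its 15 bacterial-type genes. Its 12 mitochondrion-specific genes gave 3 up and 1 down. Of all genes, 7.47% were called higher and 6.47% lower with MPP+. The bacterial-type rise is Mrps2 and the falls include Mrps10, both near background in control. The mitochondrion-specific rises are Mrps27 and, as relatives of bacterial S18 that the list of names leaves out, Mrps18a and Mrps18b. Mrps18a also sits in the large subunit. The opposite split of the 2 classes thus rests in part on these genes. The differences between classes and between subunits were not tested.

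Different probes of a gene did not always agree. In 9 genes 2 probes were kept, and the brighter one stands for the gene above. In a fit of every probe on its own, both probes were called lower with 3-NPA for Mrpl41, Mrpl54 and Mrps21, and 1 of the 2 for Mrpl10, Mrpl17, Mrpl35 and Mrps16. The probes of Mrpl41 overlap, as do those of Mrpl54, so they are not separate measurements of the transcript. For Mrpl35 the second probe stood at -0.01 and 0.11 in control and -0.34 and -0.18 with 3-NPA, a difference of -0.31 ± 0.14 that was not called, against the fall of 0.96 at the brighter probe. For Mrpl40 the brighter probe was not called, while the dimmer one was at -1.44 and -1.27 in control and -0.66 and -0.64 with 3-NPA, and rose by 0.70 ± 0.10. The Mrpl35 probes lie at chr4:105106986-105111007, minus strand and chr4:105103419-105103478, minus strand, and their opening bases are shown because the result differs between them.
Mrpl35, brighter probe: ggaatattacgtcccctcaatgtctcggtt
Mrpl35, second probe: gttcatgacagtcatcactagtgcctgggt

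Other groups of genes place the 3-NPA change. Of 35 complex I subunits, the nuclear genes named Nduf, 13 fell with 3-NPA, or 37.1%, with a median of -0.27. They included Ndufs8 (by 0.77 ± 0.13) and Ndufa8 (by 0.64 ± 0.14). Of 85 cytosolic ribosomal proteins only Rpl7 and Rps14 fell, by 0.47 ± 0.10 and 0.29 ± 0.08, or 2.35%, with a median of 0.0057. With MPP+ no complex I subunit was called, and Rpl28, Rpl12 and Rpl27a rose, by 0.44, 0.44 and 0.59, beside a median of 0.15 over the cytosolic ribosomal proteins. With Mn neither group had a call. The difference between these groups and the mitochondrial ribosomal genes was not tested.

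The wider machinery of mitochondrial translation was mixed. Of 7 further mitoribosomal proteins that carry other names, none was called with any toxin, and with 3-NPA Dap3 and Ptcd3 differed by 0.20 and 0.18 and Gadd45gip1 and Chchd1 by -0.20 and -0.21. Of 20 assembly and rRNA modification factors, 4 fell, or 20.0%, and 2 rose with 3-NPA, where 16.0% of all genes fell and 22.3% rose. Ybey, an endoribonuclease, fell by 1.14 ± 0.14 with 3-NPA and by 0.85 ± 0.14 with MPP+. Eral1, a chaperone of the small-subunit rRNA, rose by 0.59 ± 0.11 and 0.52 ± 0.11. Ddx28, a helicase of large-subunit assembly, rose by 0.59 ± 0.09 with MPP+ and 0.52 ± 0.09 with Mn. Of 14 genes listed with the translation factors, a list that also holds Letm1 and Oxa1l, 5 fell (35.7%) and 1 rose (7.14%) with 3-NPA. The falls included Pdf, the peptide deformylase (by 0.80 ± 0.12), Guf1, an elongation factor (by 0.70 ± 0.13), and Letm1 (by 0.37 ± 0.10). Letm1 was also the only one of this list called with Mn, where it fell by 0.50 ± 0.10.

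Genes of mitochondrial transcription and tRNA charging were counted likewise. Of 14 genes of transcription and RNA stability 4 fell with 3-NPA, or 28.6% against 16.0% of all genes: Tefm, the elongation factor of mitochondrial transcription, by 0.75 ± 0.15, Hsd17b10, a subunit of mitochondrial RNase P, by 0.57 ± 0.10, Polrmt, the mitochondrial RNA polymerase, by 0.46 ± 0.11, and Pnpt1 by 0.41 ± 0.11. Polrmt was also the only one called with Mn, where it fell by 0.61 ± 0.11. Of 15 mitochondrial aminoacyl tRNA synthetases Wars2 and Mars2 rose with 3-NPA, by 1.04 ± 0.12 and 1.03 ± 0.18, and Yars2 fell by 0.65 ± 0.14, which is 13.3% higher and 6.67% lower against 22.3% and 16.0% of all genes. With MPP+ Mars2 and Ears2 rose, by 1.05 ± 0.18 and 0.54 ± 0.10. Of the lower-case names, mrpl24 fell by 0.32 ± 0.09 with 3-NPA and rose by 0.35 ± 0.09 with MPP+, and mrpl9 and mrpl11 were not called.

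Promoters were searched for letters known from the control of mitochondrial genes. NRF-1 and ETS family factors (among them NRF-2) are known regulators of nuclear genes for mitochondrial proteins. RefSeq promoters on the GRCr8 build were found by symbol for 56 of the 69 genes, and the 250 bases before the start were read on both strands. For 28 of the 56 the start in the promoter table differs from the gene's start in the gene table. The difference reaches 18658 bases inside the gene for Mrpl48 and 8905 for Mrps31, both of which hold the ETS letters. Not all windows are therefore those before the gene's listed start. The NRF-1 letters CGCNTGCGC occurred in 8 of 56, or 14.3%, against 6.81% of the 21851 protein-coding RefSeq promoters and 5.09% of all 33469. The ETS letters CCGGAAG occurred in 10 of 56, or 17.9%, against 9.01% and 7.27%. The E-box CACGTG was found in 4 of 56 (7.14% against 6.16% and 5.59%), the YY1 letters AAGATGGCG in 1, and those of the amino acid response element, TGATGNAA, in 1. Among the 22 promoters of genes that fell with 3-NPA, 1 held the NRF-1 letters (Mrpl22) and 2 the ETS letters (Mrpl27 and Mrpl48). The window of Mrpl22 lies 2745 bases inside the gene, that of Mrpl27 18 and that of Mrpl48 18658. Among the other 34 promoters 7 held the NRF-1 letters and 8 the ETS letters. Of those 8, the windows of Mrpl36 and Mrps31 lie 2325 and 8905 bases inside the gene. A match describes letters in this window and is not a binding site.

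The last 120 bases before the start are shown for genes that fell with 3-NPA and hold none of these letters there (Mrpl41, Mrpl54 and Mrps7), for Mrpl23, which rose with MPP+ and 3-NPA, and for Mrpl17, which holds 3 NRF-1 matches counted over both strands. Capitals mark the matches. They lie on GRCr8 at chr3:28179756-28179875, minus strand, chr7:9103405-9103524, plus strand, chr10:101342522-101342641, plus strand, chr1:207116810-207116929, plus strand and chr1:169575700-169575819, minus strand, in the same order as listed here. Mrpl17 itself stood at 2.76 and 3.16 in control and 2.72 and 2.64 with 3-NPA, and was not called at its brighter probe. Its dimmer probe fell by 0.65 ± 0.10 with 3-NPA and rose by 0.56 with MPP+.
Mrpl41: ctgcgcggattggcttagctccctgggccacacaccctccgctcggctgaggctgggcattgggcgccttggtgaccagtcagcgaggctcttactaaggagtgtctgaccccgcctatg
Mrpl54: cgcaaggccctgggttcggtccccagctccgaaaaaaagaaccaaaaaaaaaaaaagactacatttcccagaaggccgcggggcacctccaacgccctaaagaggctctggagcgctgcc
Mrps7: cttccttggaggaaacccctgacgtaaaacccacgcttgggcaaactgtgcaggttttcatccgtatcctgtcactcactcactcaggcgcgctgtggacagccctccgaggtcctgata
Mrpl23: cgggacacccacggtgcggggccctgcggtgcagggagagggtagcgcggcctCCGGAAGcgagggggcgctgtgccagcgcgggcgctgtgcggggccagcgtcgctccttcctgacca
Mrpl17: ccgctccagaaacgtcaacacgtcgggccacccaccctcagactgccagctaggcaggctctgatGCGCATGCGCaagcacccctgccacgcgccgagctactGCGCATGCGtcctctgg

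The scaling of the arrays moved the balance of calls. Scaling on each array's median in place of its 75th percentile shifted the median over all genes tested, on the log2 fold change scale, by 0.11 with MPP+ and by -0.14 with 3-NPA. With that scaling 29 ribosomal genes were called lower and 1 higher with 3-NPA, at medians of -0.42 (large) and -0.36 (small) against -0.093 over all genes, and 7 were called higher and 1 lower with MPP+. The share of upward calls among all genes went from 58.2% to 42.6% with 3-NPA, from 53.6% to 71.5% with MPP+ and from 58.8% to 69.9% with Mn. With quantile normalization the 3-NPA split was 3 higher and 21 lower, and with normexp background correction 4 higher and 22 lower.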

How the data were processed

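RNA of 8 samples of N27 cells was hybridised to single-colour Agilent rat arrays with Cy3, and spots were read with Agilent Feature Extraction 11.5.1.1, per the submitters' processing notes and the file headers. The deposited scanner files give a processed signal per spot, an intensity that the software corrected for background, per the file headers, with no normalization between arrays. The deposited value table holds log2 values whose 75th percentiles lie near 0, and its normalization tool is not given in the sources used here. It served as an alternative, as its columns correlate with the scanner values by 0.997 to 1.00.

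From the intensities, control spots and outlier-marked spots were left out, 39 probes were dropped because some array had all of their spots marked, spots of a probe were averaged, and log2 signals were set to 0 at the 75th percentile of each array. The brightest probe kept stands for a gene. Group means were fitted with limma 3.58.1 in R 4.3.3 over all 8 arrays (residual degrees of freedom 4, prior 2.06), with Benjamini-Hochberg adjustment over 16908 genes. The number of arrays, 2 a group, limits the precision. Lists were described by counts and medians, with no set test.

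The members and lists were chosen with earlier results of these data known, and Mrps21l was put among the bacterial-type genes after the files were read, as a predicted copy of Mrps21. Named genes are, for each toxin and subunit, up to 4 called rises and 4 called falls of largest size, up to 3 per direction between toxins, members of listed roles, members without a kept probe, and up to 4 genes per related list by smallest p; Mrpl54, Mrps16 for its level plot, Mrpl4, Mrpl48, Mrps15 and the genes with 2 probes were chosen after their values were seen. The fit was tested on simulated data with known changes. Probe names come from the scanner files, and no protein sequences were used. The alternatives are other background corrections, scalings, filters on dim probes, probe rules, variance models, array weights, fewer arrays, a replicate block and a 2-fold limit.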

Additional observations from a re-analysis of the deposited data

How the results depend on the processing

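Over all settings that left out 1 array, the number of ribosomal genes called ran from 8 to 29 with 3-NPA (30 with all arrays), 0 to 11 with MPP+ (12), 0 to 1 with Mn (0), 0 to 4 between Mn and MPP+ (5), 4 to 15 between Mn and 3-NPA (15) and 4 to 29 between MPP+ and 3-NPA (26). With only the 4 arrays compared it was 16 with 3-NPA, 2 with MPP+ and 0 between Mn and MPP+. The shares of all genes called there were 29.8%, 5.78% and 1.82%. With the 6 arrays of the first extraction run the number was 5 with MPP+ and 1 between Mn and MPP+. All genes gave 7.60% and 3.81% there. A change of at least 2-fold as well was met by 2 genes with 3-NPA (Mrpl49 and Mrps10, the latter with no valid fold against control), 0 with MPP+, 0 between Mn and MPP+, 2 between Mn and 3-NPA and 2 between MPP+ and 3-NPA. Mn against control had 2 calls with normexp, 3 with no filter on dim probes, and 1 each with the deposited table, with genes above background on all 8 arrays, with every probe and with trended robust variances. Mn against MPP+ had 8 with normexp, 0 with no filter, 9 with genes above background on all 8 arrays and 11 with trended robust variances. Mn against 3-NPA had 24 on the median scaling and 9 with no filter, and MPP+ against 3-NPA had 15 with no filter and 40 with array weights. The median log2 fold change of the large subunit with 3-NPA was -0.22 with normexp, -0.17 with quantile normalization and -0.42 on the median scaling, and ran from -0.33 to -0.21 without 1 array; that of the small subunit was -0.36 on the median scaling and ran from -0.27 to -0.13. With MPP+ the medians became 0.11 (large) and 0.16 (small) on the median scaling and ran from -0.039 to 0.063 and from -0.043 to 0.062 without 1 array. With Mn they became -0.037 with quantile normalization and -0.022 on the median scaling (large), 0.037 on the median scaling and -0.11 with every probe (small), and ran from -0.14 to -0.026 and from -0.14 to 0.031 without 1 array, so the sign of the small-subunit median with Mn and of both with MPP+ is not settled. The cause of these moves was not tested, beyond the fewer arrays or genes a setting has.

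Replicate numbers are shared between groups in the labels. Same-numbered arrays of Mn and 3-NPA deviated together, with a correlation of 0.50 between their replicate differences across genes. For the other pairs of groups it lay between -0.024 and 0.098. Same-numbered Mn and 3-NPA arrays shared a slide column, but so did those of control and MPP+, at a correlation of 0.024. The cause was not tested, and the main fit treats all arrays as independent. With the replicate block 26 genes were called with 3-NPA, 8 with MPP+ (6 higher and 2 lower) and 0 with Mn, and 3 between Mn and MPP+. The precision is limited by 2 arrays a group and, for Mrps10, Mrpl47, Mrps2 and Mrps28, by signal near background.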
